A study of Mus musculus with 15 samples.

Results

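The 10 genes described here carry out the main reabsorption steps of the proximal tubule, the first stretch of the nephron behind the glomerulus. They were chosen by name and not by a rule on their values, though earlier results of these data were known. Slc5a2, Slc5a1 and Slc2a2 stand for glucose, and Slc34a1 and Slc34a3 for phosphate. Slc4a4 and Slc9a3 stand for bicarbonate and acid, Lrp2 and Cubn for filtered protein, and Slc6a19 for neutral amino acids. All 10 were measured, each by 1 probe set annotated to that gene alone, out of 22180 genes with such a probe set. Whole kidney RNA came from 8 Grhl1 knockout mice (Grhl1-/-, replicates 8 to 15) and 7 wild-type mice (Grhl1+/+, replicates 1 to 7), all about 6 months old. Each sample is 1 array, and all values are on the log2 scale that robust multi-array average (RMA) gives for a probe set. Grhl1 belongs to the grainyhead-like family of transcription factors, which act in epithelia. For strain, sex, litter and the deleted part of the gene, the sources used here give nothing, and the labels do not limit the deletion to kidney cells.

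Proximal tubule cells take up filtered sugar, phosphate, sodium and amino acids through transporters of the brush border, most of which are driven by sodium, and pass them to the blood through carriers on the opposite side of the cell. The early segments recover the bulk of the load with high capacity, and the last segment recovers the remainder with high affinity. Filtered proteins are bound by large endocytic receptors and degraded in lysosomes. Of the 10 genes, Slc2a2 and Slc4a4 act on the blood side, and the others act at the brush border.

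Grhl1 itself read 4.40 to 4.92 in the knockout kidneys and 4.96 to 5.25 in the wild-type kidneys, with no overlap. All 15 values lay below the median probe set of their arrays, which was 5.51 to 5.59, and whether this signal stood above background was not tested. The difference was -0.38 (SE 0.07), and it missed the threshold in limma over all probe sets (adjusted p = 0.113). Several arrays carried transcripts that the genotype label does not account for. Y-linked genes (3 of 4 measured) averaged 8.37 to 8.68 in 5 knockout and 5 wild-type arrays, and 3.96 to 4.26 in knockout replicates 13, 14 and 15 and wild-type replicates 6 and 7. Xist read 11.41 to 11.57 in the arrays without Y-linked transcripts and 3.60 to 4.29 in those with them, and the labels give no sex. Adrenal cortex genes (9 of 10 measured) averaged 7.20 to 9.38 in knockout replicates 10, 11, 12 and 13 and wild-type replicates 2 and 3, against 4.98 to 5.33 elsewhere. Liver genes (16 of 16 measured) averaged 8.16 to 10.45 in knockout replicate 10 and wild-type replicates 3 and 7, against 6.17 to 6.48 elsewhere.

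None of the 10 genes differed between genotypes past the threshold, a Benjamini-Hochberg adjusted p under 0.05 in limma over all 23521 probe sets with 1 gene symbol. Their means were higher in knockout kidneys for 9 of 10 genes, where 54.6% of all probe sets were higher. Their median log2 difference, knockout minus wild type, was 0.11, against 0.0083 over all probe sets. The 10 genes were read in the same kidneys and can vary together, so 9 of 10 is not a count of separate observations. At an unadjusted p under 0.05 there were 2 of the 10, Slc6a19 and Slc9a3, against 5.55% of all probe sets, and 0 passed the adjusted threshold, which 0.0128% of all probe sets did. In none of the 10 genes did the groups separate without overlap, which 0.123% of all probe sets did. In bulk RNA of this kind, fewer cells of a type and less RNA per cell cannot be told apart.

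**Figure D1:**
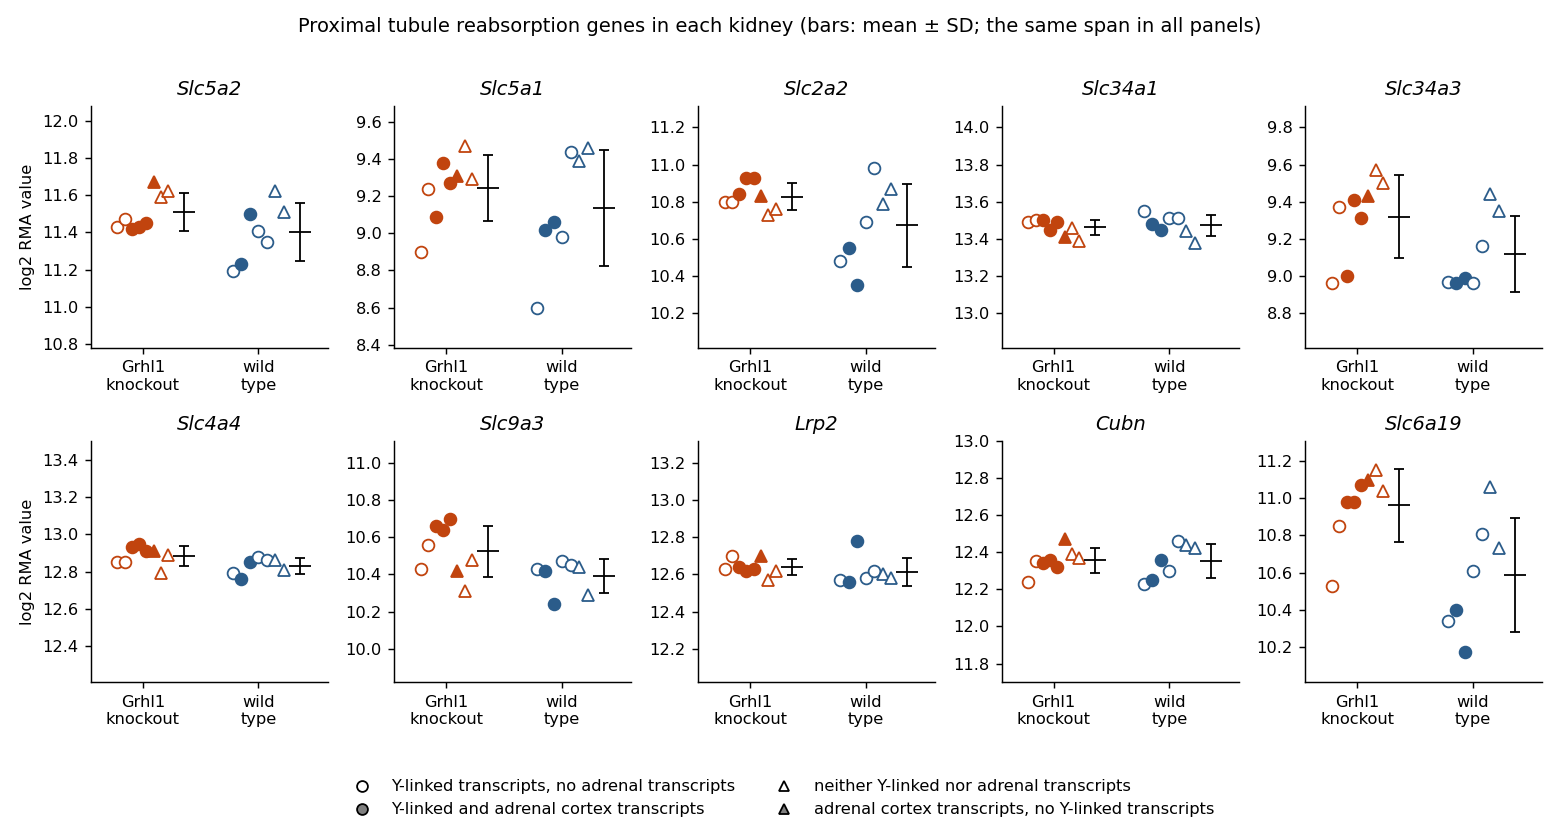
Log2 RMA value of each of the 10 genes in each kidney, with knockout at the left and wild type at the right of each panel. Points are single arrays, circles with and triangles without Y-linked transcripts, filled where adrenal cortex transcripts were present, and bars are means ± SD (n = 8 knockout, n = 7 wild type). The genotypes overlap in every panel, and Slc6a19 shows the widest gap between the means, 10.96 against 10.59.

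Glucose is recovered in 2 steps. Slc5a2, the high-capacity sodium-glucose cotransporter SGLT2 of the early tubule, read 11.42 to 11.67 in knockout kidneys (median 11.46) and 11.19 to 11.62 in wild-type kidneys (median 11.41). All 8 knockout values lay above the wild-type median, while 4 of the 7 wild-type values lay below every knockout value. The means were 11.51 ± 0.10 and 11.40 ± 0.16 (SD, n = 8 and n = 7), a log2 difference of 0.11 (95% interval -0.03 to 0.25) or 1.08-fold (0.979 to 1.19), with limma adjusted p = 0.970 and an exact permutation p of 0.124. Slc5a1, the high-affinity cotransporter SGLT1 of the late tubule, varied more among animals, from 8.90 to 9.47 in knockout kidneys (median 9.28) and from 8.60 to 9.46 in wild-type kidneys (median 9.06). Its difference of 0.11 had the widest interval next to Slc6a19, -0.15 to 0.36 (limma adjusted p = 0.992, exact permutation p = 0.430), and came to 0.018 without wild-type replicate 1, the lowest value.

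Slc2a2 encodes GLUT2, which lets glucose leave the cell toward the blood and is also the main glucose transporter of hepatocytes. It was tightly grouped in knockout kidneys, at 10.73 to 10.93 (median 10.82), and spread from 10.35 to 10.98 in wild-type kidneys (median 10.69). The lowest wild-type value was in replicate 3, which held liver and adrenal cortex transcripts. The means were 10.83 ± 0.07 and 10.67 ± 0.22 (SD, n = 8 and n = 7), a difference of 0.16 (95% interval -0.01 to 0.33) or 1.11-fold, with limma adjusted p = 0.937 and an exact permutation p of 0.0855. The 1 knockout array with liver transcripts read 10.84, and the 2 wild-type arrays with them read 10.35 and 10.87. Without those 3 arrays the difference was 0.13, and without wild-type replicate 3 alone it was 0.10. It was 0.012 without the 6 arrays with adrenal cortex transcripts and -0.056 among the 5 arrays without Y-linked transcripts.

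Phosphate uptake at the brush border rests mainly on Slc34a1, the cotransporter NaPi-IIa, with a contribution from Slc34a3, NaPi-IIc. Slc34a1 varied little among animals, at 13.39 to 13.50 in knockout kidneys (median 13.47) and 13.38 to 13.55 in wild-type kidneys (median 13.48). The difference was -0.01 (95% interval -0.09 to 0.07), between 0.939-fold and 1.05-fold, with limma adjusted p = 0.997 and an exact permutation p of 0.617. These values lay near the top of the table, whose highest value was 13.90, and whether signal near that limit was compressed was not tested. Slc34a3 read 8.96 to 9.57 in knockout kidneys (median 9.39) and 8.96 to 9.44 in wild-type kidneys (median 8.99). Its means were 9.32 ± 0.22 and 9.12 ± 0.20 (SD, n = 8 and n = 7), a difference of 0.20 (95% interval -0.02 to 0.42) or 1.15-fold, with limma adjusted p = 0.937 and an exact permutation p of 0.0996. The 4 highest values of Slc34a3 came from arrays without Y-linked transcripts, 3 knockout and 1 wild type. The difference was 0.10 among the 5 arrays without Y-linked transcripts and 0.20 among the 10 with them, and 0.31 among the 6 arrays with adrenal cortex transcripts.

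Promoter windows from 250 bases before to 50 after the annotated start, from RefSeq on GRCm38.p6, were matched for 9 of the 10 genes, all but Slc5a2, with 10 windows in all. The motif AACCGGTT of grainyhead factors, the family of Grhl1, occurred in 0 of these 10 windows and in 0.146% of all 32851 windows, counting both strands. The absence of a match says only that these letters are not in these windows.

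Slc9a3 encodes NHE3, which exchanges sodium for protons at the brush border and so drives the reclamation of bicarbonate. It read 10.31 to 10.70 in knockout kidneys (median 10.52) and 10.24 to 10.47 in wild-type kidneys (median 10.43), and 5 of the 8 knockout values lay above every wild-type value. The means were 10.53 ± 0.14 and 10.39 ± 0.09 (SD, n = 8 and n = 7), a difference of 0.13 (SE 0.06, 95% interval 0.00 to 0.27) or 1.10-fold. It missed the threshold, with a limma adjusted p of 0.894 and an exact permutation p of 0.0454. The 3 highest values were knockout replicates 10, 11 and 12, which all held adrenal cortex transcripts, and without the 6 arrays with such transcripts the difference was 0.03. Without the 3 arrays with liver transcripts it was 0.06, and it was 0.20 among the 10 arrays with Y-linked transcripts and 0.04 among the 5 without.

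Slc4a4 encodes NBCe1, the carrier that passes bicarbonate on to the blood. It read 12.79 to 12.95 in knockout kidneys (median 12.90) and 12.76 to 12.88 in wild-type kidneys (median 12.85). Although 5 of the 8 knockout values exceeded every wild-type value, the difference was 0.06 (95% interval -0.02 to 0.14), at most 1.10-fold within that interval, with limma adjusted p = 0.973 and an exact permutation p of 0.0533. It was 0.0069 without the 6 arrays with adrenal cortex transcripts.

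The endocytic receptors Lrp2 (megalin) and Cubn (cubilin) together bind albumin, vitamin carriers and other filtered proteins. Lrp2 read 12.57 to 12.70 in knockout kidneys (median 12.63) and 12.56 to 12.78 in wild-type kidneys (median 12.58). Its difference was 0.03 (95% interval -0.06 to 0.11), with limma adjusted p = 0.997 and an exact permutation p of 0.400, and it was 0.06 without wild-type replicate 3, the highest value. Cubn read 12.24 to 12.47 in knockout kidneys (median 12.35) and 12.23 to 12.46 in wild-type kidneys (median 12.36). The difference of 0.003 (95% interval -0.10 to 0.10) spanned 0.935-fold to 1.07-fold, with limma adjusted p = 0.999 and an exact permutation p of 0.941, and its sign was not settled, as it was negative in 9 of the 30 alternative fits.

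Slc6a19 encodes B0AT1, the sodium-driven carrier that recovers most neutral amino acids at the brush border, and its difference was the widest of the 10. It read 10.53, 10.85, 10.98, 10.98, 11.07, 11.10, 11.15 and 11.04 in knockout replicates 8 to 15, against 10.34, 10.40, 10.17, 10.61, 10.81, 11.06 and 10.73 in wild-type replicates 1 to 7. The groups overlapped. Only 3 of the 7 wild-type values lay below every knockout value, and 3 of the 8 knockout values lay above every wild-type value. Knockout replicate 8 lay below the wild-type median. The means were 10.96 ± 0.20 and 10.59 ± 0.31 (SD, n = 8 and n = 7), a difference of 0.37 (SE 0.12, 95% interval 0.11 to 0.63) or 1.30-fold (1.08 to 1.55). The unadjusted limma p was 0.00749, number 256 in order among 23521 probe sets, the adjusted p of 0.672 missed the threshold, and the exact permutation p was 0.0159.

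The Slc6a19 difference varied with the arrays used. It was 0.42 among the 10 arrays that held Y-linked transcripts, 0.20 among the 5 that did not, and 0.35 when the Y-linked mean entered the fit as a covariate. Among the 6 arrays with adrenal cortex transcripts the 4 knockout values were 10.98 to 11.10 and the 2 wild-type values 10.17 and 10.40, a difference of 0.75, whereas among the other 9 arrays it was 0.18 (SE 0.16). The difference between those differences was 0.56 (SE 0.23, unadjusted p = 0.0255, limma adjusted p = 1). Slc2a2 followed the same split, at 0.43 among the 6 arrays and 0.012 among the other 9 (difference 0.42, SE 0.14, unadjusted p = 0.00941, limma adjusted p = 1). In that fit 0 of 23521 probe sets passed, and 1041 (4.43%) had an unadjusted p under 0.05. Slc6a19 and Slc2a2 are given because their gaps were the widest of the 10 genes. The 6 arrays were fitted alone only after the data were seen, and the split rests on 2 wild-type arrays with adrenal cortex transcripts. Both of these, replicates 2 and 3, also held Y-linked transcripts, and replicate 3 held liver transcripts as well. Wild-type replicates 6 and 7, without Y-linked transcripts, fell among the other 9 arrays. The adrenal split therefore overlaps the others, and their parts cannot be told apart here. With the adrenal cortex mean as a covariate Slc6a19 was at 0.39 and Slc2a2 at 0.17, so that the values differed between these ways of handling the same arrays. The part of adrenal tissue in these differences was not tested further.

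**Figure D2:**
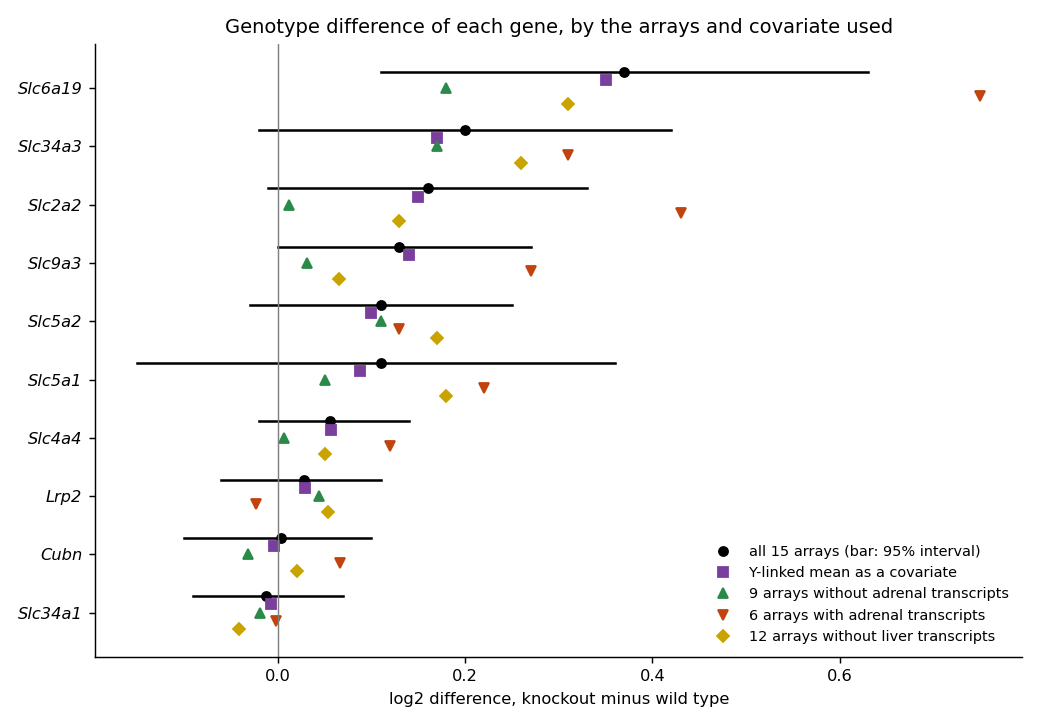
Log2 difference, knockout minus wild type, of each of the 10 genes over all 15 arrays with its 95% interval, and the same difference when the Y-linked mean is a covariate or over parts of the arrays. For Slc6a19 the points run from 0.18 in the 9 arrays without adrenal transcripts to 0.75 in the 6 arrays with them, while all points of Slc34a1, Cubn and Lrp2 lie between -0.041 and 0.066.

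Within each genotype, several of the genes read differently in arrays with and without Y-linked transcripts. Slc34a3 read 9.43 to 9.57 in the 3 knockout arrays without Y-linked transcripts and 8.96 to 9.41 in the 5 knockout arrays with them, and 9.35 to 9.44 in the 2 wild-type arrays without and 8.96 to 9.16 in the 5 wild-type arrays with them. Slc5a2 likewise did not overlap within either genotype, at 11.59 to 11.67 without and 11.42 to 11.47 with Y-linked transcripts among knockouts, and 11.51 to 11.62 without and 11.19 to 11.50 with them among wild types. Slc6a19 was higher without Y-linked transcripts by 0.22 among knockouts and by 0.43 among wild types, with overlap in both, and Slc34a1 was lower by 0.07 and 0.09. Cubn did not overlap among knockouts only, and Slc34a1 among wild types only. The share of all probe sets that separate in this way was not computed, and with 3 or 2 against 5 arrays chance alone can separate a gene. These sets of arrays come from the data and not from the labels, and the differences between them within a genotype were not tested. Slc7a13, an amino acid transporter of the last segment that is known to be higher in male mouse kidney, read 12.67 to 12.86 in the 10 arrays with Y-linked transcripts and 6.13 to 6.82 in the 5 without.

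The genotype difference was also compared between the 2 sets of arrays. Slc2a2 differed by 0.25 with Y-linked transcripts and by -0.06 without them, and Slc5a1 by 0.16 and -0.07. In a limma fit with an interaction term, 0 of 23521 probe sets passed for that difference of differences, with 1655 (7.04%) at an unadjusted p under 0.05. Among the 10 genes the limma adjusted p was lowest for Slc2a2, at 0.731. The set without Y-linked transcripts held 3 knockout and 2 wild-type arrays, which limits that comparison.

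**Figure D3:**
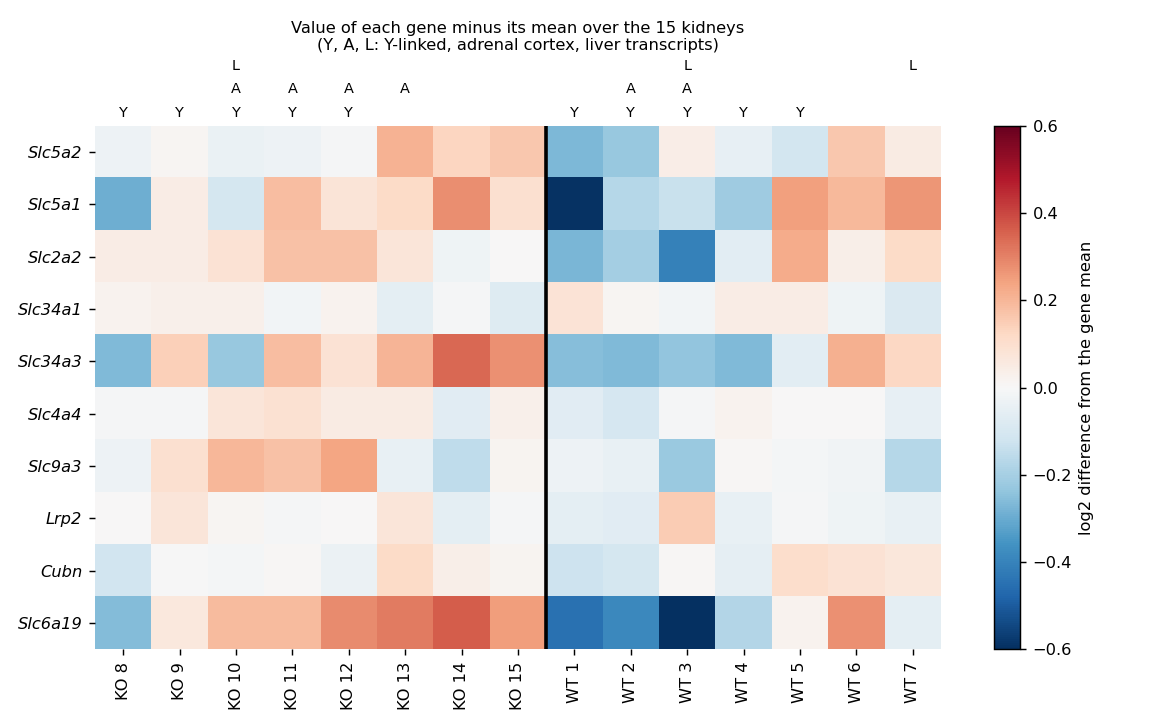
Value of each of the 10 genes minus its mean over the 15 kidneys, in log2 units, with knockout arrays at the left and wild-type arrays at the right of the black line. Letters mark arrays with Y-linked (Y), adrenal cortex (A) and liver (L) transcripts. Wild-type replicates 1 and 2 were among the 3 lowest of 15 arrays in 7 of 10 genes each, and Slc34a1, Slc4a4, Lrp2 and Cubn are pale throughout.

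The arrays also differed in their average over the 10 genes. Wild-type replicates 1 and 2 lay above the gene mean in 1 of 10 genes each, and the centred values of the 10 genes averaged -0.21 and -0.15 there, the lowest of the 15 arrays. Knockout replicate 8 averaged -0.09, while the other 7 knockout arrays averaged 0.02 to 0.11. Wild-type replicates 3 and 4 averaged -0.14 and -0.08, so that 4 of the 7 wild-type arrays and 1 of the 8 knockout arrays lay below 0. Wild-type replicates 5, 6 and 7 averaged 0.02 to 0.09, within the range of the other 7 knockout arrays.

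The partners of these carriers and receptors, from lists chosen by function, showed no call either. Of 91 measured genes in 7 lists, 0 passed the adjusted threshold in either direction. At an unadjusted p under 0.05, 5 were higher in knockout kidneys, where 3.49% of all probe sets were, and 1 was lower, where 2.06% were. Their median difference was 0.02, with 60 higher and 31 lower. Each of the 7 lists had a median between 0.002 (segment and brush border genes) and 0.06 (amino acid handling), against 0.0083 over all probe sets. The segment and brush border list had a mean of -0.023, opposite in sign to its median, and its lowest gene was Slc7a13 at -0.51.

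Among 10 measured genes of sugar handling, 8 were higher and 2 lower. Pdzk1ip1, the accessory subunit of SGLT2, differed by 0.04 (limma adjusted p = 0.997). The fructose carrier Slc2a5 differed by 0.21 and the kinase gene Sgk1 by -0.27, both with limma adjusted p = 0.937. Among 13 genes of phosphate handling, Pth1r, the receptor of parathyroid hormone, differed by 0.03 and Kl, the klotho coreceptor of a phosphate-lowering hormone, by 0.04 (limma adjusted p = 0.997 for both), and the scaffold Slc9a3r1, which anchors NaPi-IIa, by 0.0088 (limma adjusted p = 0.998). Slc34a2, the phosphate cotransporter best known from lung and intestine, was higher by 0.39 (SE 0.15). Slc20a2, the type III phosphate cotransporter PiT-2, was higher by 0.13 (SE 0.06). Neither passed in limma (adjusted p = 0.783 and 0.874), and the exact permutation p was 0.0308 and 0.0123, unadjusted. The lowest wild-type value of Slc20a2, 8.93 in replicate 3, lay apart from the others at 9.14 to 9.26. The Slc20a2 difference without that array was not computed.

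The 17 endocytosis genes lay closest together, from -0.05 to 0.06. Amn, which carries cubilin to the membrane, differed by -0.04, the receptor chaperone Lrpap1 by 0.03 and the endosomal chloride-proton exchanger Clcn5 by -0.05 (limma adjusted p = 0.997 for each). Dab2, the adaptor of megalin, read 11.16 to 11.23 in knockout kidneys and 11.09 to 11.18 in wild-type kidneys. Its difference of 0.05 had a limma p of 0.130 unadjusted and 0.973 adjusted. The exact permutation p was 0.00668, not adjusted for the 91 genes of the lists. How many of all probe sets reach such a permutation p was not computed. The clathrin adaptor Ap2a1 differed by 0.04 (limma adjusted p = 0.992).

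Of 16 amino acid genes, 13 were higher and 3 lower. Cltrn (collectrin), which B0AT1 needs to reach the brush border, differed by 0.05 (limma adjusted p = 0.979), Slc43a2 by 0.21 (adjusted p = 0.826) and Slc6a13 by 0.08 (adjusted p = 0.950). Of 11 sodium and bicarbonate genes, 8 were higher, among them the anion exchanger Slc26a6 at 0.28 (limma adjusted p = 0.894), while the dicarboxylate carrier Slc13a3 was at -0.11 (adjusted p = 0.950). Of 15 segment and brush border genes, 8 were higher and 7 lower. Slc5a12, the lactate carrier of the early tubule, was at 0.14 (limma adjusted p = 0.973), the brush border linker Ezr at 0.10 (adjusted p = 0.937) and the monocarboxylate carrier Slc16a1 at 0.17 (adjusted p = 0.970). Slc7a13 was at -0.51 with an interval of -3.72 to 2.71. In both genotypes it lay far lower in the arrays without Y-linked transcripts, which were 3 knockout and 2 wild-type arrays. Its difference over all arrays thus mixes genotype with the share of such arrays.

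Among 9 measured regulators, Hnf4a, a nuclear receptor that maintains proximal tubule identity, was lower, at 12.06 ± 0.07 in knockout kidneys and 12.16 ± 0.07 in wild-type kidneys (SD, n = 8 and n = 7). The difference was -0.10 (SE 0.04), with a limma p of 0.0362 unadjusted and 0.889 adjusted. The exact permutation p was 0.0157, also unadjusted. Liver transcripts were present in 1 knockout and 2 wild-type arrays. The Hnf4a difference without those arrays was not computed, and their part in it was not tested. Foxo1, a transcription factor under insulin control, was at 0.12 (limma adjusted p = 0.894). Pdzk1 had no probe set of its own symbol alone and was not analysed here.

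**Figure D4:**
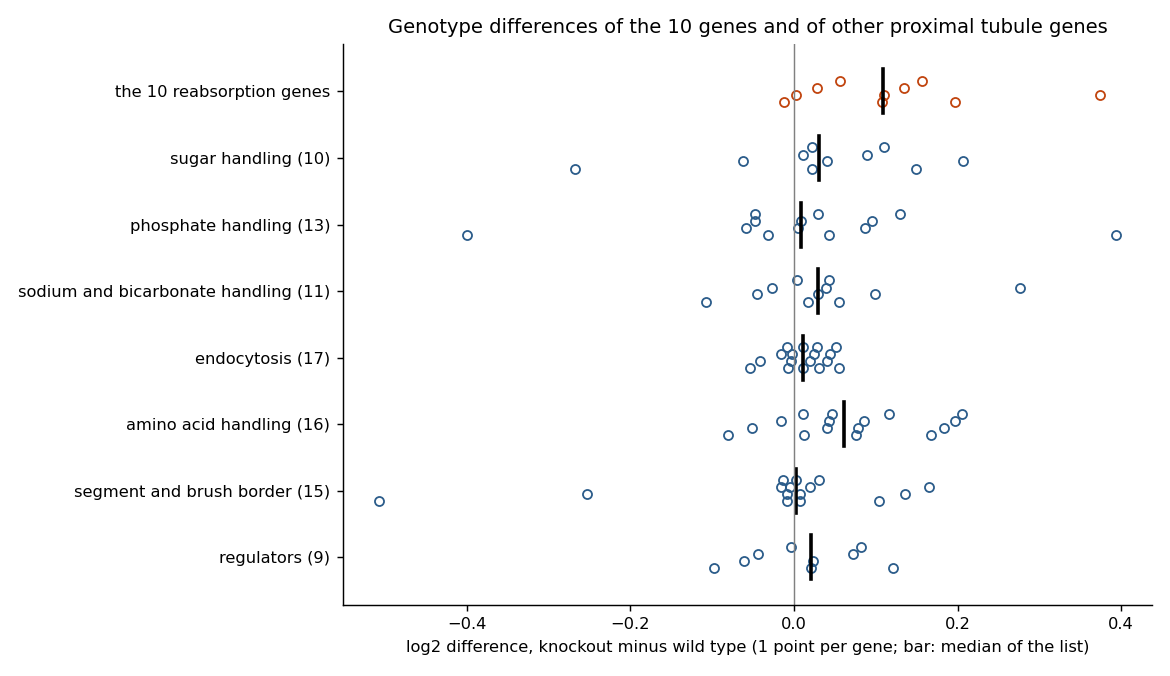
Log2 difference, knockout minus wild type, of the 10 reabsorption genes (red) and of the measured genes in 7 lists of other proximal tubule genes (blue), 1 point per gene, with a bar at each list's median. The medians of the 7 lists lie between 0.002 and 0.06, and the endocytosis genes span the narrowest range.

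The genes whose values followed Slc5a2, Slc34a1 and Lrp2 most closely across the arrays were picked by the highest Pearson r over all 15 arrays with genotype means removed. Because the arrays fall into sets with and without Y-linked transcripts, r is given within the 10 arrays with them, as a description with no p, since each gene is the top of 22180. For Slc5a2 these were Grik5 (r = 0.93, Spearman rho = 0.85), Atp5k (r = 0.90, rho = 0.84) and Serinc5 (r = 0.86, rho = 0.65). Next, the 2 of these 10 arrays were left out where Slc5a2, with genotype means removed, lay farthest from its median. Without them r was 0.75, 0.73 and 0.36 in that order. Leaving out the farthest arrays narrows the range of values and so tends to lower r, and the lower values do not show what a likeness rested on. For Slc34a1 they were Aldh8a1, Bco2 and Ankrd13c (r = 0.84, 0.85 and 0.86, rho = 0.71, 0.93 and 0.77), with r of 0.76, 0.63 and 0.71 without 2 arrays. For Lrp2 they were Nf1, Efr3a and Mdn1 (r = 0.95, 0.89 and 0.85, rho = 0.83, 0.88 and 0.64), with r of 0.82, 0.66 and 0.47 without 2 arrays. All points share the arrays and their normalization.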

How the data were processed

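From each kidney, 500 ng of RNA went into the Ambion WT Expression kit, was biotin-labelled and hybridised to 1-colour arrays, per the labels' protocols. The deposited values are log2 probe set summaries that the authors made with RMA, per the submitters' processing notes. The software, its version and the array's genome build are not given in the sources used here. RMA equalises the distributions of the arrays, so a shift of most transcripts in 1 direction is removed. Of 41345 probe sets, 23521 had 1 gene symbol in the platform annotation and were tested, 1814 had several and 16010 were unnamed here. Symbols were updated by Entrez ID to RefSeq genes of GRCm38.p6 for 23328. The probe set with the highest mean stood for a gene with more than 1.

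The sample titles gave the group and number of each array. The series' design counts 8 and 7 mice, so each array was taken as 1 animal. Knockout minus wild type was fitted with limma 3.58.1 (lmFit, eBayes) in R 4.3.3 on all 15 arrays without covariates, two-sided, with Benjamini-Hochberg adjustment over the 23521 probe sets. Intervals are 95% intervals of that fit. Single genes were also tested with a two-sided exact permutation test over all 6435 splits, whose smallest possible p is 0.000155. These p-values are not adjusted for the number of genes. No scanner files were used, so signal over background was not tested, and precision is limited by how many arrays there are.

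Arrays were said to hold adrenal cortex or liver transcripts when the mean of that list was over 1 log2 unit above its median across arrays, and Y-linked ones when that mean was above the midpoint of its range. The 10 genes, the lists and the tests were chosen with earlier results of these data known. The text names the 10 genes, Grhl1, Xist, and the partners and segment genes listed for them whatever their values (Slc5a12 and Slc7a13 among them). In each of the 7 lists it also names the 2 genes with the smallest unadjusted p, since none passed. Some partner genes and the other motifs searched in promoters are not reported here. Alternatives were covariates, parts of the arrays, leaving out each array, array weights, an intensity trend, median centring, a filter on dim probe sets, all probe sets, and gene means.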

Additional observations from a re-analysis of the deposited data

Results flagged for a closer look

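Of 70 combinations of genotype and gene checked for a single array far from its group, 3 stood out, and chance gives about 1 in 20. Lrp2 in wild-type replicate 3 was the highest of its group at 12.78, with the next value at 12.62 and the lowest at 12.56, and the Lrp2 difference was 0.06 without that array. Slc20a2 was lowest in the same array, at 8.93, with the others between 9.14 and 9.26, and its difference without that array was not computed. That array held Y-linked, adrenal cortex and liver transcripts. Lrpap1 was lowest in knockout replicate 13 at 11.72, with the others between 11.80 and 11.87. That array held adrenal cortex transcripts and no Y-linked transcripts. The part of those transcripts in the 3 values was not tested.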

How the results depend on the processing

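No paired analysis was possible because the labels give no litter or batch by which to pair knockout and wild-type arrays. In 300 fits of the 10 genes under 30 alternatives no gene passed, with a smallest adjusted p of 0.202 (Slc6a19, only the 6 arrays with adrenal cortex transcripts), and 287 kept their direction. The 13 that turned belonged to 5 genes. Cubn was -0.0037 when the Y-linked mean was a covariate, -0.004 with Y-linked, adrenal and liver means as covariates, -0.022 in the arrays without Y-linked transcripts, -0.032 without the arrays with adrenal cortex transcripts, and -0.018 to 0.021 leaving out 1 array. In the arrays without Y-linked transcripts Slc5a1 was -0.071, Slc2a2 -0.056 and Slc34a1 0.0062, and in those with adrenal cortex transcripts Lrp2 was -0.023. Slc6a19 stayed between 0.30 and 0.45 leaving out 1 array. Over all probe sets limma called 3 probe sets, and 14 when the Y-linked mean was a covariate, 8 with the 3 covariates, 7 over the whole table, 1 in the arrays without Y-linked transcripts, 0 in those with adrenal cortex transcripts, 0 among probe sets above the median level and 2 to 6 leaving out 1 array. Of the 10 genes, 2 had an unadjusted p under 0.05, and 4 with array weights, 1 over the whole table, with the adrenal, the liver or all 3 covariates, 0 without the arrays with adrenal cortex transcripts or in those without Y-linked ones, and 1 to 4 leaving out 1 array. The 4 alternatives with adrenal or liver covariates or only adrenal arrays were chosen after seeing the data.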

Other observations

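Markers of other parts of the nephron showed no call between genotypes either. Of 9 measured markers, 5 had higher and 4 lower means in knockout kidneys, with differences from -0.24 to 0.08. Umod, the main secreted protein of the thick ascending limb, read 13.11 to 13.32 in knockout kidneys and 13.07 to 13.33 in wild-type kidneys (difference -0.0012, 95% interval -0.10 to 0.10, limma adjusted p = 0.999). Slc12a3, the thiazide-sensitive cotransporter of the distal convoluted tubule, differed by -0.02 (limma adjusted p = 0.997), and Aqp2, the water channel of principal cells, by 0.07 (adjusted p = 0.997). The markers with the smallest unadjusted p were Slc4a1, the anion exchanger of intercalated cells and red blood cells, at -0.24, and Calb1, a calcium-binding protein of the distal tubule, at 0.06 (limma adjusted p = 0.973 for both). Umod, Slc12a3, Aqp2 and Slc7a12 were chosen after their values were seen. Slc7a12, an amino acid transporter known to be higher in female mouse kidney, read 12.64 to 12.80 in the 5 arrays without Y-linked transcripts and 7.57 to 9.78 in the 10 with them.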
